A study of Arabidopsis thaliana with 9 samples.

Results

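PRK, LHCB4.1 and RCA are nuclear genes of photosynthesis, and their transcripts were followed in Arabidopsis thaliana rosette leaves in which the small-peptide gene DVL4 could be switched on. The 3 genes were taken as the probe sets of the Affymetrix ATH1 array annotated to 1 of them and to no other gene. Each gene had 1 such probe set, 255720_at for PRK (locus AT1G32060), 251082_at for LHCB4.1 (AT5G01530) and 245061_at for RCA (AT2G39730), so 3 of the 22746 probe sets tested were described. No probe set listed with several genes included any of them.

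The study held 9 arrays in 3 groups, all in the Columbia background. DVL4 dex was a line carrying a dexamethasone-inducible (GVG) DVL4 construct, treated with dexamethasone (dex, a steroid that activates the construct) at 30 µM, reading the written unit um as micromolar. DVL4 mock was the same line after mock treatment, and empty vector dex was a line with the GVG construct without a coding sequence, given the same dex. Plants were grown at 22 °C with 16 h days, treated at the stage of 6 expanded rosette leaves and harvested 10 h later, and the largest leaf of 20 plants was pooled for each of 3 biological replicates. The design had no empty vector group without dex, so line and dex cannot be told apart between the 2 controls. Between DVL4 dex and DVL4 mock, dex itself and the switched-on DVL4 construct cannot be told apart. DVL4 dex and empty vector dex share the dex treatment but differ in line. The labels name a single DVL4 line. No probe set was listed for DVL4 here, so its induction was not checked.

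Light-harvesting proteins hold chlorophyll and pass absorbed energy to the photosystems, whose electron transport supplies ATP and NADPH. The Calvin cycle spends these to fix carbon dioxide with Rubisco. LHCB4.1 encodes CP29, a minor antenna protein that links the outer antenna of photosystem II to its core. PRK encodes phosphoribulokinase, which makes the sugar phosphate that Rubisco carboxylates, and RCA encodes Rubisco activase, which frees Rubisco of inhibitory sugar phosphates. Such genes are expressed strongly in green leaves and weakly in roots, and transcripts of LHCB genes and RCA follow the day and the circadian clock.

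The 3 genes were among the brightest on the array and differed little between the groups. By mean signal over the 9 arrays LHCB4.1 ranked 15, RCA 28 and PRK 43 of 22746. Ranks describe hybridisation signal and do not order the transcripts by abundance. None of the 3 passed the test in any of the 3 comparisons (limma, adjusted p under 0.05 over all probe sets). In all, 23.7% of probe sets passed between DVL4 dex and DVL4 mock (12.8% higher and 10.9% lower in DVL4 dex), 10.2% between DVL4 dex and empty vector dex (4.62% higher, 5.55% lower), and 6.21% between the controls (2.06% higher in mock, 4.15% lower). The share depended on brightness. It was 40.3%, 18.4% and 8.79% among the brightest 5% of probe sets, and 11%, 2% and 0% among the 100 brightest. The 3 genes belong to both sets, both chosen after values were seen, and 0 of 3 lies near the share of the 100 brightest and under that of the brightest 5%.

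LHCB4.1 had the narrowest range of the 3. Its intensity was 9613, 10493 and 10624 in DVL4 dex replicates 1 to 3, 11254, 10556 and 10131 in DVL4 mock, and 9867, 10034 and 10184.5 in empty vector dex. The highest array was 1.17 times the lowest, and all 3 groups overlapped. Group means were 10243 ± 550 (SD, n = 3) in DVL4 dex, 10647 ± 567 in DVL4 mock and 10029 ± 159 in empty vector dex. On the log2 scale DVL4 dex differed from DVL4 mock by -0.06 ± 0.07 (SE; 95% interval -0.22 to 0.11) and from empty vector dex by 0.03 ± 0.07 (-0.13 to 0.19). The controls differed by 0.09 ± 0.07, mock minus empty vector (-0.08 to 0.25). In folds, the intervals against the controls ran from 0.86 to 1.08 and from 0.912 to 1.14.

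PRK showed the largest difference of the 3 genes. It stood at 8056, 7995 and 8199 in DVL4 dex, at 9564, 8829 and 8861 in DVL4 mock, and at 8443, 7295 and 8671 in empty vector dex. All DVL4 mock arrays lay above all arrays of each dex group, while the dex groups overlapped. Between DVL4 dex and DVL4 mock such separation occurred for 43% of all probe sets, 61.6% of the brightest 5% and 29% of the 100 brightest. Between the controls it occurred for 26.2%, 36.1% and 21%, and between the dex groups, where PRK overlapped, for 24.8%, 38% and 23%. Mean intensity was 8083 ± 105 in DVL4 dex, 9085 ± 415 in DVL4 mock and 8136 ± 737 in empty vector dex (SD, n = 3), and the coefficient of variation went from 1.3% in DVL4 dex to 9.06% in empty vector dex.

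Between DVL4 dex and DVL4 mock the PRK difference was -0.17 ± 0.08 on the log2 scale, and its 95% interval of -0.35 to 0.01 reached 0 (limma adjusted p = 0.174). As a fold this is 0.89, with an interval from 0.785 to 1.01. With arrays weighted by their quality in the fit the difference was -0.19 and passed (limma adjusted p = 0.0347), a setting in which 9000 probe sets passed in place of 5402. Mock leaves were higher than empty vector leaves by 0.16 ± 0.08, which did not pass either (limma adjusted p = 0.291). DVL4 dex and empty vector dex differed by -0.01 ± 0.08 (-0.19 to 0.18). The order of the PRK means was mock, empty vector dex and DVL4 dex, and no neighbours in it differed beyond the test's threshold.

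RCA was lowest in DVL4 dex replicate 1 and highest in empty vector dex. Its intensity was 8262, 9126 and 9468 in DVL4 dex, 9604, 8739 and 9042 in DVL4 mock, and 9912, 9050.0 and 9895 in empty vector dex. All groups overlapped. The means were 8952 ± 621, 9128 ± 439 and 9619 ± 493 (SD, n = 3). DVL4 dex differed from DVL4 mock by -0.03 ± 0.08 (95% interval -0.21 to 0.15) and from empty vector dex by -0.10 ± 0.08 (-0.28 to 0.07), and the controls differed by -0.08 ± 0.08 (-0.25 to 0.10). The largest fall of RCA against the empty vector that the interval allowed was to 0.822-fold. The log2 ratio of PRK to RCA within an array was -0.15 ± 0.09 (SD, n = 3) in DVL4 dex, -0.01 ± 0.02 in DVL4 mock and -0.24 ± 0.06 in empty vector dex. DVL4 mock lay above both other groups without overlap, and the dex groups overlapped. Each separation had an exact permutation p of 0.1, the smallest 3 against 3 arrays allow, and 0.164 when adjusted over the 18 ratio tests described below. The pair was chosen after its values were seen, and PRK alone already set DVL4 mock above both dex groups. No share was computed for ratios of other gene pairs.

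**Figure D1:**
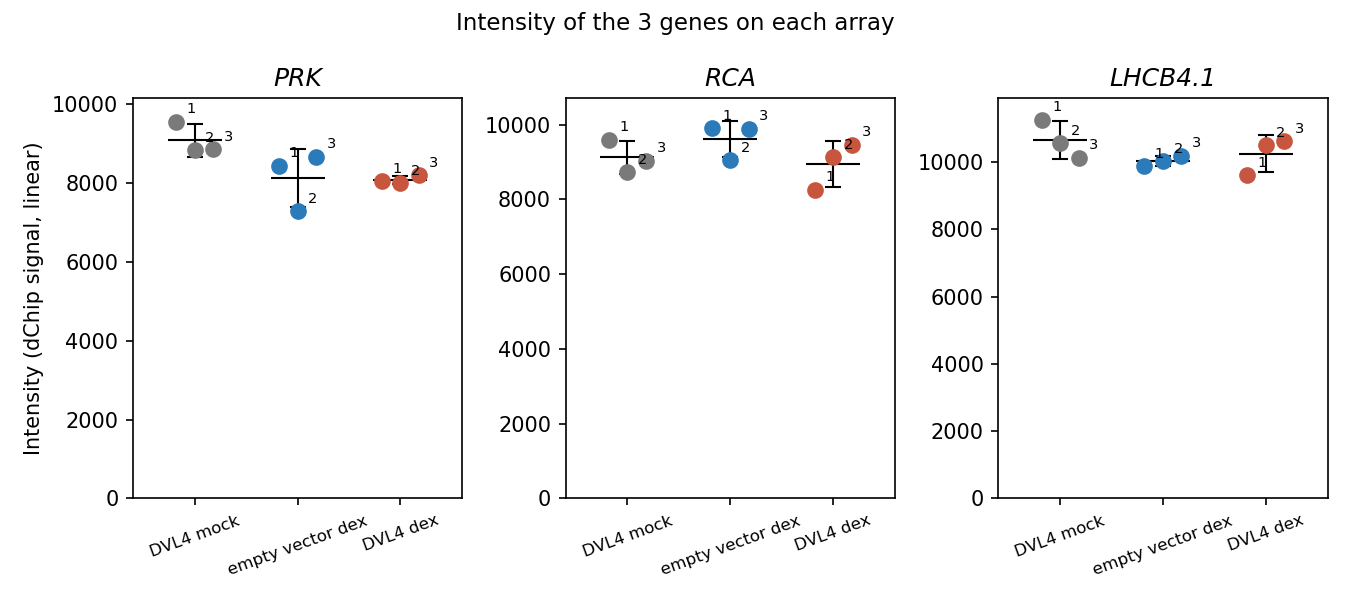
Intensity (linear dChip signal, axis from 0) of PRK, RCA and LHCB4.1 on each of the 9 arrays, with replicate numbers beside the points and bars for the mean ± SD of 3 arrays. PRK in DVL4 mock, between 8829 and 9564, lies above both dex groups, and the groups of the other genes overlap.

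For each gene the intervals are those of a single probe set. A p that misses the threshold does not show that the levels were equal. The intervals bound the difference between DVL4 dex and either control for all 3 genes to between 0.785-fold and 1.14-fold.

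The spread of the 3 genes was small against all probe sets and ordinary for their brightness. The SD of log2 intensity over the 9 arrays was 0.11 for PRK, 0.09 for RCA and 0.07 for LHCB4.1, against a median of 0.32 over all probe sets. Only 4.26%, 1.84% and 0.747% of all probe sets had a smaller SD. Of the 100 brightest, however, 70 had a smaller SD than PRK, 50 a smaller one than RCA and 27 a smaller one than LHCB4.1. The differences between the groups made up 54.6% of the variance of PRK over the 9 arrays, 29.7% of that of RCA and 30.9% of that of LHCB4.1, where 25% is the mean share with no difference between the groups. None of the 3 genes passed limma's F-test over all groups (adjusted p = 0.252, 0.605 and 0.674).

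The spread of all probe sets narrowed toward the top of the array's range, where the 3 genes lie. The median SD was 0.09 for the 100 brightest probe sets, 0.13 for those ranked 101 to 200, 0.16 for those ranked 201 to 500 and 0.19 for those ranked 501 to 1138. The share that passed between DVL4 dex and DVL4 mock went from 11% to 25%, 40.3% and 47.3% over the same bins. The brightest probe set of an array reached between 10746 and 13116. LHCB4.1 stood at 76.8% to 89.4% of that maximum, RCA at 70.1% to 78.7% and PRK at 58.0% to 77.1%. The part of the array's upper limit in the small differences of the 3 genes was not tested.

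**Figure D2:**
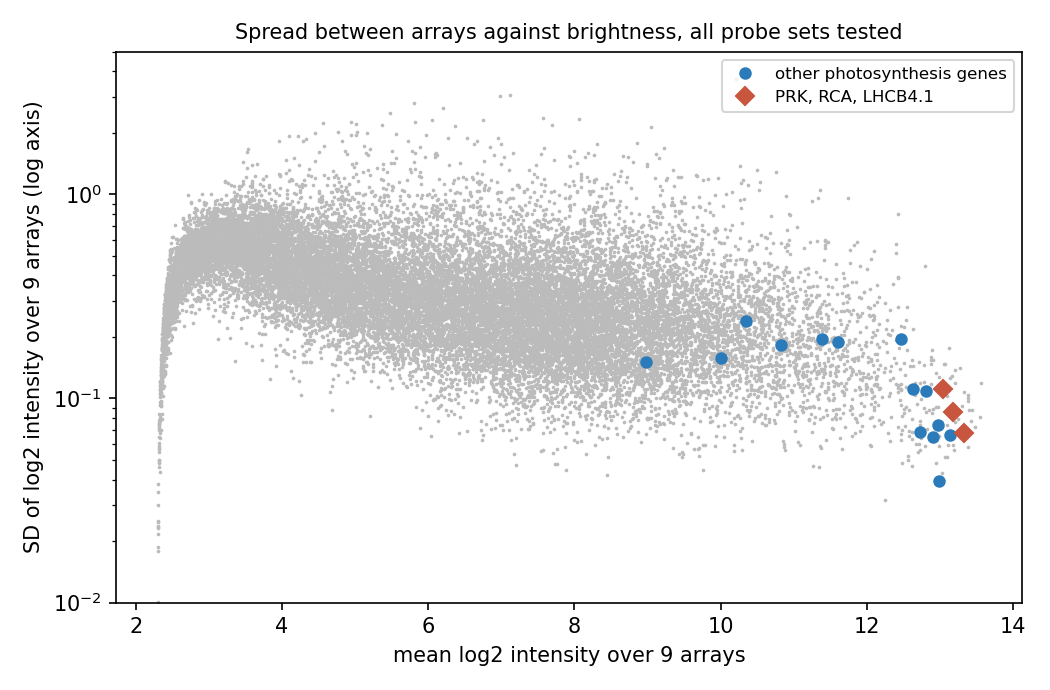
SD of log2 intensity over the 9 arrays (log axis) against mean log2 intensity for all probe sets tested, with PRK, RCA and LHCB4.1 as diamonds and 14 other photosynthesis genes as circles. The spread narrows among the brightest probe sets, where the 3 genes lie at SDs of 0.07 to 0.11, and 39 probe sets with an SD under 0.01 fall outside the axis.

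Joint variation of the 3 genes between arrays did not pass a test for any pair. DVL4 dex replicate 1 held the lowest value of both LHCB4.1 and RCA, and DVL4 mock replicate 1 the highest of both LHCB4.1 and PRK. Over the 9 arrays Pearson's r was 0.56 for PRK with LHCB4.1, 0.31 for PRK with RCA and 0.33 for LHCB4.1 with RCA (Spearman's rho 0.45, 0.17 and 0.22). None of these 3 pairs passed (exact permutation p = 0.114, 0.425 and 0.382, adjusted 0.341, 0.425 and 0.425, 2-sided). For rho the exact permutation p-values were 0.23, 0.678 and 0.581, adjusted 0.678 for each.

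On deviations from the group means r was 0.32, 0.70 and 0.72 in the same order of pairs, with rho 0.37, 0.68 and 0.70. Exact permutation within groups gave p = 0.255, 0.0417 and 0.0833 for r (adjusted 0.255, 0.125 and 0.125) and 0.306, 0.0463 and 0.12 for rho (adjusted 0.306, 0.139 and 0.181). Without the 2 arrays farthest from the median of the first gene, r became 0.13, 0.20 and -0.44. The r of LHCB4.1 with RCA thus turned negative without DVL4 dex replicate 1 and DVL4 mock replicate 1 (exact permutation p = 0.324, 7 arrays). That of PRK with LHCB4.1 became small, and that of PRK with RCA, small from the start, stayed positive. Leaving out extreme arrays narrows the range of the first gene, so this cannot show what a positive r rested on.

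Within the 6 arrays with higher 5' signal of the control transcript dap, r was 0.66, 0.24 and 0.25. The other 3 arrays, DVL4 dex replicates 1 and 2 and empty vector dex replicate 1, had a ratio of 5' to 3' signal of 0.228 to 0.278 against 0.601 to 1.33, and were too few for an r of their own. In those 3 arrays PRK ran from 7995 to 8443, LHCB4.1 from 9613 to 10493 and RCA from 8262 to 9912, and each range overlapped that of the other 6. With this status as a covariate none of the 3 genes passed in any comparison. The array carries a second pair of dap probe sets, by which DVL4 dex replicate 3 was low too (0.481, against 0.504 in empty vector dex replicate 3). The first pair was chosen after both had been seen, since the second leaves no DVL4 dex array once low arrays are left out. With status by the second pair as a covariate the 3 genes did not pass either, and PRK differed from DVL4 mock by -0.25 (limma adjusted p = 0.346). Control probe sets for actin and GAPDH gave a further reading of 5' to 3' signal. For actin the ratio was 0.163 to 0.165 in DVL4 mock and 0.0539 to 0.14 in the dex-treated arrays. For GAPDH it was 0.475 to 0.574 and 0.171 to 0.419. Both set DVL4 mock above both dex groups, as PRK did, while for ubiquitin the groups overlapped. The part of this in the differences from DVL4 mock was not tested.

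The probe sets whose pattern over the 9 arrays was most like that of a member were sought among 6057 other probe sets with 1 gene and above-median brightness. For PRK they were AT4G17360 (r = 0.93), AT2G39020 (r = 0.93) and AT1G80380 (r = 0.92). The last of these, listed below as GLYK, encodes glycerate kinase of photorespiration. Its means were 2037 ± 108 in DVL4 mock, 1729 ± 64.5 in DVL4 dex and 1739 ± 299 in empty vector dex. The mean of mock lay above those of both dex groups, as for PRK, which follows from picking it by its r with PRK. Unlike for PRK, its mock arrays (1918 to 2128) overlapped those of empty vector dex (1398 to 1955). For LHCB4.1 they were AT2G30320 (r = 0.87), the plastid gene ccsA (r = 0.85) and AT4G36960 (r = 0.81), and for RCA AT5G49000 (r = 0.92), AT4G30825 (r = 0.90) and AT1G15710 (r = 0.87). These are the highest of many correlations over 9 arrays and are given as a description.

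Other nuclear genes of photosynthesis were read from 8 lists with 102 entries, of which 17 had a probe set named to them alone, the 3 genes included. Between DVL4 dex and DVL4 mock 2 of the 17 rose, 2 fell and 13 did not pass. Against empty vector dex 1 rose and 2 fell, and between the controls 1 was lower in mock. These are 23.5%, 17.6% and 5.88% of the 17, against 23.7%, 10.2% and 6.21% of all probe sets. Most of the 17 belong to the brightest 5%, where 40.3%, 18.4% and 8.79% passed. Many also belong to the 100 brightest, where 11%, 2% and 0% passed. The first and the last share lie near those of all probe sets, and the second rests on 3 genes. All 3 shares lie between those of the 2 bright sets, and none of these sets matches the 17 in brightness. The median difference was -0.08, -0.04 and 0.01 on the log2 scale, against 0.01, 0.00 and -0.02 over all probe sets and -0.06, -0.04 and 0.02 over the 100 brightest. The comparisons share groups of arrays, so their values are given side by side only.

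LHCB4.1 passed in no comparison. Of its closest relatives, LHCB4.2 passed for DVL4 dex against both controls, and LHCB4.3 for DVL4 dex against empty vector dex only. A pass for a gene and none for another does not show that the genes differ from each other. LHCB4.2, the second gene for CP29, stood at 6637, 6866 and 6675 in DVL4 dex, at 4996, 4989 and 5425 in DVL4 mock, and at 4912, 5684 and 5302 in empty vector dex. All DVL4 dex arrays lay above all others. Against DVL4 mock such separation, in either direction, occurred for 43% of all probe sets and 61.6% of the brightest 5%. Against empty vector dex it occurred for 24.8% and 38%. Of the probe sets ranked 101 to 200 in brightness, LHCB4.2 among them, 25% and 17% passed in these comparisons. LHCB4.2 rose 1.31-fold against DVL4 mock (0.39 ± 0.07, limma adjusted p = 0.00464) and 1.27-fold against empty vector dex (0.35 ± 0.07, limma adjusted p = 0.0179), and the controls differed by -0.04 ± 0.07.

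LHCB4.3, a diverged member of the LHCB4 genes, stood at 2540.1, 2952 and 2882 in DVL4 dex, at 2962, 3315 and 2902 in DVL4 mock, and at 3828, 3439 and 3618 in empty vector dex. All empty vector dex arrays lay above all others. Such separation, in either direction, occurred for 24.8% of all probe sets and 38% of the brightest 5% between the dex groups. Between the controls it occurred for 26.2% and 36.1%. LHCB4.3 fell to 0.768-fold of empty vector dex (-0.38 ± 0.09, limma adjusted p = 0.0216) and did not pass against DVL4 mock (-0.13 ± 0.09) or between the controls (-0.25 ± 0.09, limma adjusted p = 0.126).

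Ratios within an array compare these genes directly. In all 6 pairs of genes were taken in 3 comparisons, chosen after their values were seen, and 11 of the 18 ratio tests gave groups that did not overlap. The 18 tests reuse the same genes and arrays. No share was computed for ratios of other gene pairs, so this count has no background and is given as a description. The log2 ratio of LHCB4.2 to LHCB4.1 was -0.61 ± 0.07 (SD, n = 3) in DVL4 dex, -1.05 ± 0.14 in DVL4 mock and -0.92 ± 0.09 in empty vector dex, and DVL4 dex did not overlap either control. That of LHCB4.3 to LHCB4.1 was -1.88 ± 0.05, -1.80 ± 0.13 and -1.47 ± 0.09, with both DVL4 line groups below the empty vector. Each separation reached the exact permutation p of 0.1, 2-sided, the smallest that 3 against 3 arrays allow, and 0.164 when adjusted over the 18 tests. These ratios mix probe affinity with level, and only their differences between groups can be read.

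Leaving out single arrays ended some of these calls, and the differences kept their sign. Against the empty vector LHCB4.2 did not pass without empty vector dex replicate 3 (0.35) or DVL4 dex replicate 1 (0.36) or 2 (0.33), and LHCB4.3 without empty vector dex replicate 1 (-0.34) or 3 (-0.38) or DVL4 dex replicate 1 (-0.31). Against DVL4 mock LHCB4.2 passed in 21 of 22 other settings, the exception being the fit without the 3 arrays of low 5' signal (0.38), which left 1 DVL4 dex array. With 5' status by the second dap pair as a covariate LHCB4.2 still passed against both controls (0.55 and 0.45), and LHCB4.3 did not against the empty vector (-0.46, limma adjusted p = 0.0769). Without the low-5' arrays neither passed against the empty vector (0.28 and -0.29, limma adjusted p = 0.259 and 0.284). The same calls were lost with trend=FALSE (limma adjusted p = 0.075 and 0.0777) and with only the 2 groups fitted (0.0564 and 0.0568).

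**Figure D3:**
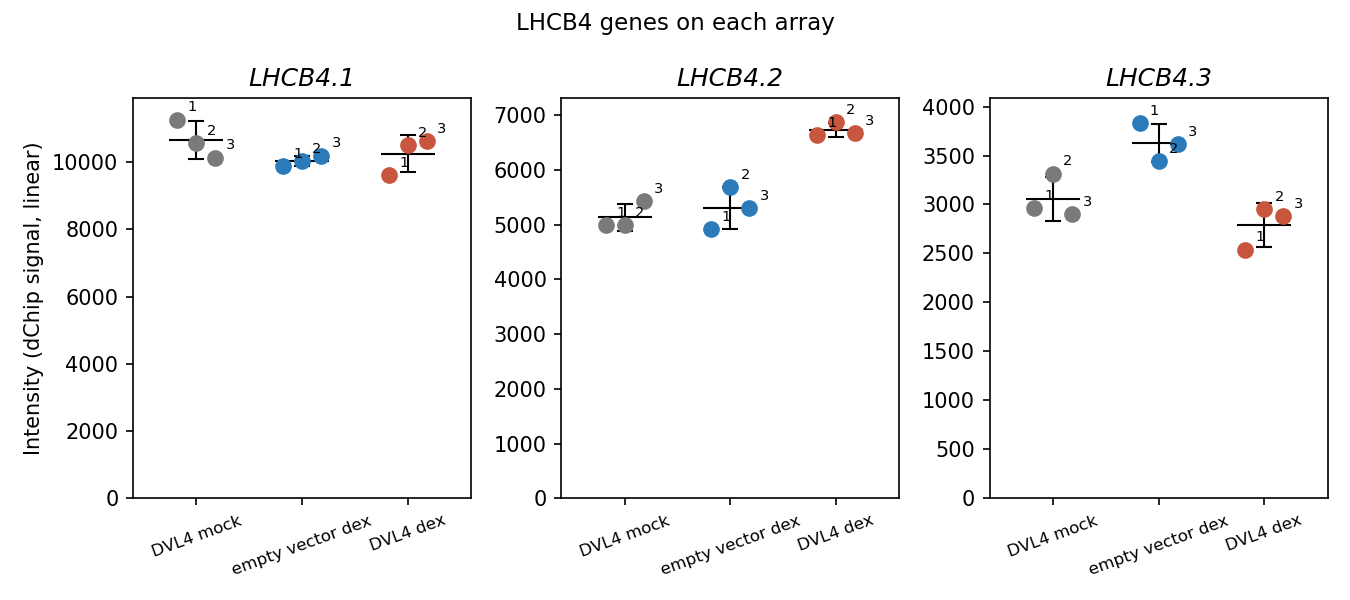
Intensity (linear dChip signal, axes from 0) of the 3 LHCB4 genes on each array, with replicate numbers beside the points and bars for mean ± SD of 3 arrays. LHCB4.1 overlaps between the groups, LHCB4.2 in DVL4 dex (6637 to 6866) lies above both controls, and LHCB4.3 in empty vector dex (3439 to 3828) lies above both groups of the DVL4 line.

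In the Calvin cycle list, 4 of 23 entries were measured. SBPASE, which encodes the sedoheptulose bisphosphatase that helps rebuild the substrate of PRK, fell against DVL4 mock, from 6692 ± 220 to 5760 ± 225 (0.861-fold, -0.22 ± 0.06, limma adjusted p = 0.0355). It had a similar difference against empty vector dex that did not pass (-0.20 ± 0.06, limma adjusted p = 0.0783). The log2 ratio of SBPASE to PRK was -0.49 ± 0.07 (SD, n = 3) in DVL4 dex, -0.44 ± 0.02 in DVL4 mock and -0.29 ± 0.12 in empty vector dex. The DVL4 line groups overlapped (exact permutation p = 0.4), and each lay below the empty vector without overlap. The ratio of SBPASE to RCA was -0.63 ± 0.08, -0.45 ± 0.03 and -0.54 ± 0.07, and did not overlap between DVL4 dex and DVL4 mock only. SBPASE passed in 10 of 22 other settings only, with values between -0.26 and -0.16. Single arrays whose removal ended the call were DVL4 dex replicates 1 (-0.19) and 3 (-0.21) and DVL4 mock replicates 1 (-0.19), 2 (-0.23) and 3 (-0.23), and with the replicate number as a block its adjusted p was 0.0667.

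PGK2 (AT1G56190), a plastid phosphoglycerate kinase gene, separated the controls. It was 2368 ± 227 in DVL4 mock and 3114 ± 121 in empty vector dex (-0.40 ± 0.08, limma adjusted p = 0.0226), with DVL4 dex between them at 2586 ± 123 and not past the test against either (0.13 ± 0.08 and -0.27 ± 0.08). The call was lost without empty vector dex replicate 3 (-0.37) and without DVL4 mock replicate 1 (-0.41) or 3 (-0.32), and also with trend=FALSE, with only the 2 groups fitted and without the low-5' arrays (limma adjusted p = 0.0863, 0.0606 and 0.0979).

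Plastid redox regulators were represented by TRXF2 and NTRC, whose differences from each control had opposite signs with all arrays fitted by group. TRXF2 encodes an f-type thioredoxin, a protein that activates Calvin cycle enzymes such as PRK in the light, and rose 1.25-fold against DVL4 mock, from 931 ± 28.5 to 1164 ± 8.32 (0.32 ± 0.08, limma adjusted p = 0.0124). Its difference from empty vector dex was 0.23 ± 0.08 and did not pass (limma adjusted p = 0.0825). NTRC, a plastid thioredoxin reductase with its own thioredoxin domain, fell to 0.773-fold of DVL4 mock (-0.37 ± 0.11, limma adjusted p = 0.0391) and to 0.747-fold of empty vector dex (-0.42 ± 0.11, limma adjusted p = 0.0429). Its level was 1085 ± 82.9 in DVL4 dex, 1402 ± 73.4 in DVL4 mock and 1462 ± 216 in empty vector dex.

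TRXF2 lost its call against DVL4 mock without DVL4 mock replicate 3 (0.30). NTRC lost it against DVL4 mock without any DVL4 dex or any DVL4 mock array (-0.42 to -0.31). Against empty vector dex it lost it without any array other than empty vector dex replicate 1 (-0.55 to -0.36 over all 9). With low 5' signal as a covariate NTRC differed by -0.22 from DVL4 mock and did not pass. With status by the second dap pair the difference was 0.02, with the sign turned. Over all 22 other settings NTRC passed in 11 against DVL4 mock and in 7 against empty vector dex. TRXF2 kept its size under the second pair (0.32) and did not pass (limma adjusted p = 0.213), nor did it with trend=FALSE (0.0524) or without the low-5' arrays (0.177).

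The 5 measured structural genes of the photosystems and the ATP synthase lie at the top of the brightness range, where few probe sets passed (11%, 2% and 0% of the 100 brightest in the 3 comparisons), and none of the 5 passed, which is close to that share. PSBW and PSBY, small subunits of photosystem II, differed from DVL4 mock by 0.04 ± 0.06 and -0.11 ± 0.07. PSAE-1 and PSAN, subunits of photosystem I, differed by -0.08 ± 0.07 and -0.03 ± 0.08, and ATPC1, the gamma subunit of the chloroplast ATP synthase, by -0.11 ± 0.07. Their group means were 6711 to 9207. The dimmer PGRL1B, which acts in cyclic electron flow, stood at 506 ± 30.7, 498 ± 50.9 and 511 ± 89.4 in DVL4 dex, DVL4 mock and empty vector dex.

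Of the photorespiration list, HPR and GLYK were measured and did not pass. HPR, which encodes peroxisomal hydroxypyruvate reductase, differed from DVL4 mock by -0.19 ± 0.08 (limma adjusted p = 0.122) and GLYK by -0.24 ± 0.12 (limma adjusted p = 0.189). As for PRK, all DVL4 dex arrays of both genes lay below all DVL4 mock arrays, which was the case for 43% of all probe sets in either direction. No gene of the list of transcription factors and plastid sigma factors had a named probe set here.

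**Figure D4:**
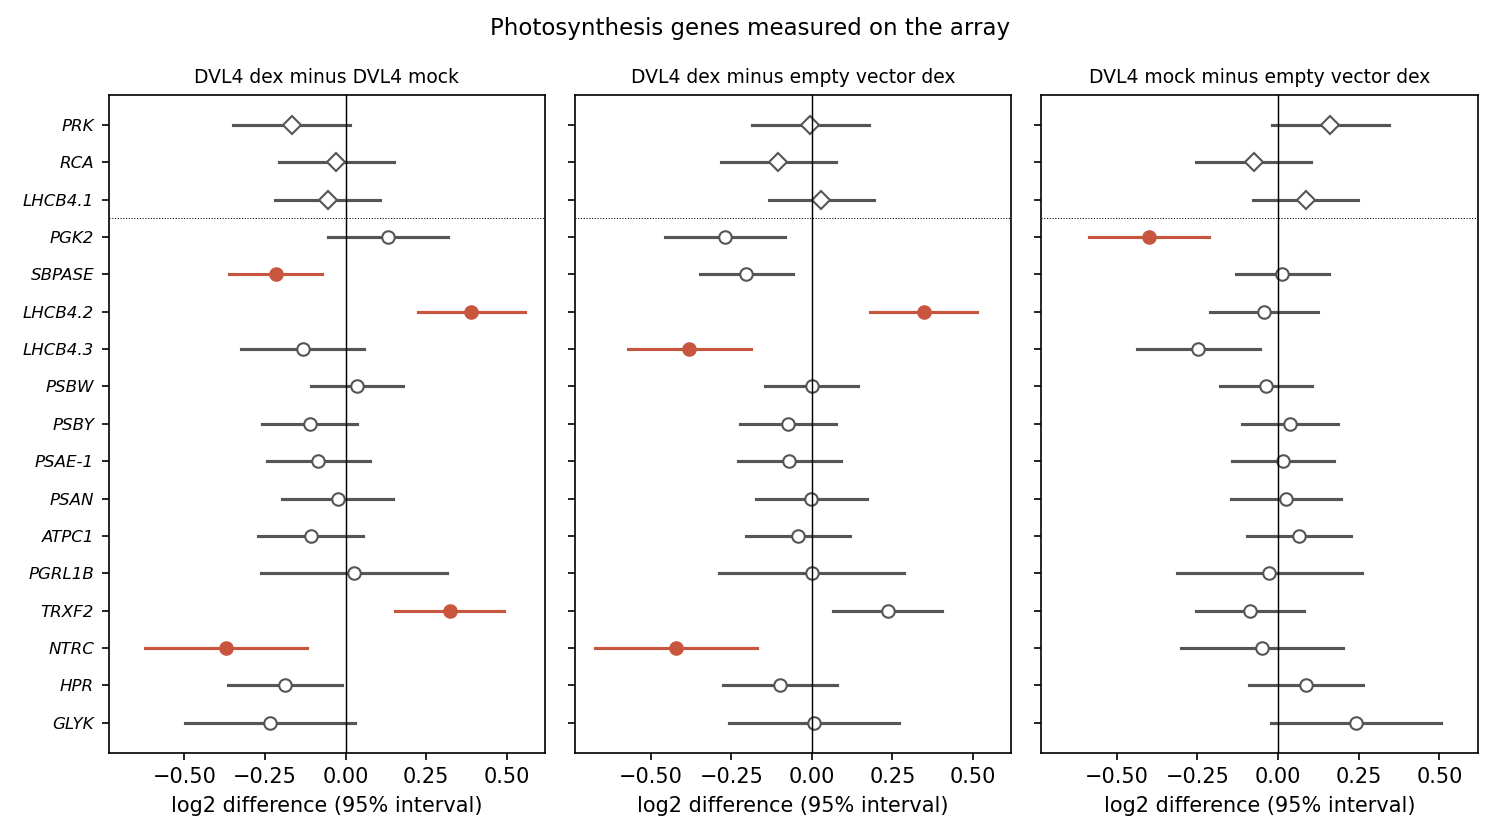
Log2 differences with 95% intervals (limma) for the 17 measured photosynthesis genes in the 3 comparisons, with PRK, RCA and LHCB4.1 as diamonds above the dotted line and filled red symbols for genes past the adjusted threshold. No interval of the 3 genes excludes 0, and LHCB4.2 lies to the right of 0 in both comparisons with DVL4 dex.

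The labelled tissue, rosette leaf, was not checked against markers of other tissues in a way that bears on the label, since signals of different probe sets cannot be ranked and the markers of senescence, flower and vascular tissue had no named probe set. The root genes PYK10, EXPA7 and EXPA18 had group means between 14.3 and 39.2, all under the array medians. EXPA7 passed between DVL4 dex and DVL4 mock (limma adjusted p = 0.0326), at 29.5 ± 6.89 against 14.3 ± 1.41 (SD, n = 3). The mock level lies under the 25th percentile of all values (20.0), and no detection calls were used here, so it was not shown to be above background and no fold is given. PYK10 and EXPA18 did not pass. The part of root RNA in the results was not tested. As leaves were pooled, fewer cells of a type and less RNA per cell cannot be told apart for any gene described. Array medians lay between 75.1 and 83.8.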

How the data were processed

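Leaf RNA of 9 samples was hybridised to Affymetrix ATH1 arrays. The authors made the deposited table of linear intensity with dChip, per the labels and series text. Its version and model are not given in the sources at hand. No normalization was added. Array medians ran from 75.1 in DVL4 dex replicate 1 to 83.8 in empty vector dex replicate 3, which matters for differences as small as those of the 3 genes. With arrays centred on their medians, DVL4 dex minus empty vector dex went from -0.01 to 0.05 for PRK and from -0.10 to -0.05 for RCA. Values under the 5th percentile (4.92) were set to that value before the log2 transform. The 64 control probe sets were left out of 22810, which left 22746. Of these 13513 have 1 gene in the platform annotation, 503 several and 8730 none listed. Loci were matched through RefSeq gene identifiers (TAIR10.1), and the brightest probe set stood for a gene.

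All 9 arrays were fitted together by group in R 4.3.3 with limma 3.58.1 (lmFit, eBayes, trend=TRUE), 2-sided, with Benjamini-Hochberg adjustment over all probe sets, a threshold of 0.05 and 95% intervals from the moderated statistic. Errors on log2 differences are standard errors, and the first group minus the second gives the sign. Exact permutation tests of the correlations and plots used Python 3.11.15 with matplotlib 3.10.9, and the within-array ratios were tested in R. The fit was tested on simulated data. The number of arrays limits the precision.

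Replicate numbers came from the titles and were not taken to pair samples. The members and gene lists were chosen with earlier results of these data known. Chosen after seeing the data were the brightness bins and bright reference sets, the within-array ratios, and which of 2 dap probe pairs defined low 5' signal (5' to 3' ratio under 0.5). Under the other pair 4 arrays were low, all DVL4 dex arrays among them, so leaving them out could not be fitted, and that pair was added as a covariate. Named genes were the 3 members, all measured genes of each list (no list had more than 6), LHCB4.2 and LHCB4.3, all measured markers, and for each member the 3 probe sets with the highest r. Alternatives covered normalization, floor, a filter on dim probe sets, limma options, the groups fitted, the replicate block, 5' signal and leaving out each array. No sequences are shown, since the tables used here hold none.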

Additional observations from a re-analysis of the deposited data

How the results depend on the processing

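The differences of the 3 genes were recomputed under 22 other settings each, and 185 of 198 values kept their sign and their side of the threshold. Many of these signs could not turn. The floor, the filter on dim probe sets and limma options such as trend=FALSE left the differences of these bright genes almost unchanged. So did fitting only the 2 groups, the replicate block and leaving out an array of the group not compared. The count of 185 therefore overstates how stable the signs were. PRK against DVL4 mock passed with array weights (-0.19), and 12 values close to 0 changed sign without passing. These were RCA against DVL4 mock with quantile normalization (0.0487) and without the low-5' arrays (0.0539), PRK against the empty vector with quantile normalization (0.0205), median centring (0.0525) and without the low-5' arrays (0.0439), LHCB4.1 against the empty vector with array weights (-0.0249) and RCA without the low-5' arrays (0.000753), the rest on leaving out 1 array. For r of LHCB4.1 with RCA the sign turned (-0.44) without the 2 farthest arrays. The cause was not tested.

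Leaving out each array in turn, PRK ran from -0.19 to -0.13 against DVL4 mock, from -0.0821 to 0.0425 against the empty vector and from 0.09 to 0.21 between the controls. LHCB4.1 ran from -0.09 to -0.01, 0.00 to 0.07 and 0.04 to 0.12, and RCA from -0.0709 to 0.0273, -0.15 to -0.05 and -0.12 to -0.04. Photosynthesis genes called numbered 1 to 5 against DVL4 mock (4 with all arrays), 0 to 2 against the empty vector (3) and 0 to 1 between the controls (1).

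Against DVL4 mock 1 was called with trend=FALSE, 7 with array weights, 2 with the low-5' covariate, 1 with that covariate from the other dap probe pair (added after seeing the data) and 0 without the low-5' arrays. Against the empty vector 5 were called without dim probe sets or with array weights, and 0 with trend=FALSE, with only the 2 groups fitted or without the low-5' arrays. The covariate from the other dap pair gave 1. Between the controls trend=FALSE, only the 2 groups and leaving out the low-5' arrays gave 0. Over all probe sets 5402, 2314 and 1412 calls became 1569, 863 and 1139 with the covariate from the other pair, and 1357, 4 and 613 without the low-5' arrays. Array weights gave 9000 in the first comparison and 2219 in the last, trend=FALSE 813 in the last, and fitting only the 2 groups 1165 and 891 in the last 2. Leaving out 1 array gave 3476 to 6104, 993 to 2257 and 480 to 2093 calls. Without the low-5' arrays a single DVL4 dex array was fitted, assumed to vary like the others. With arrays centred on their medians the calls over all probe sets against the empty vector turned from 1052 higher of 2314 to 1475 of 2555, and between the controls from 469 of 1412 to 714 of 1618.

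The deviations of arrays with the same replicate number correlated between -0.15 and 0.14, with no common sign. With the replicate number as a block none of the 3 genes passed (PRK -0.17 against DVL4 mock), and of the photosynthesis genes SBPASE lost its call, which left 3, 3 and 1.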
